A study of Mus musculus with 4 samples.

Results

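The Fc receptor genes described here are 7 mouse genes whose products bind antibody or carry the signal of an antibody receptor: Fcer1g, Fcgr1, Fcgr3, Fcgr4, Fcgr2b, Fcrls and Fcgrt. They were taken by name from the deposited RNA-seq table, as the mean of the rows that carry a name, and make up 7 of its 18674 gene names. The RNA was extracted from lumbar cord of wild type (WT) animals and of their transgenic counterparts, called G93A, in which a human SOD1 gene with a mutation of familial amyotrophic lateral sclerosis (ALS) is expressed. Each genotype received vehicle or spermidine (SD), a natural polyamine, which gives 4 groups (G93A + SD and G93A vehicle, WT + SD and WT vehicle). The mice were taken at 100 days of age after 30 days of treatment, which the labels give as 4 times per week. The dosing section of the methods gives SD at 5 mg/kg by intraperitoneal injection, and other passages of the study give a different frequency or period, so the schedule of the sequenced mice rests on the labels. The vehicle was PBS according to the labels and the sequencing methods, while the dosing section of the methods names saline. The methods describe the G93A H1 high-expresser strain on a mixed B6/SJLF1 background and male mice only in the treatment studies. Each condition is 1 library, the number of animals behind it is not given in the sources used here, and no difference below has a replicate check.

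Cells of the myeloid lineage, which in the spinal cord are mostly microglia, read antibody-coated material through Fc gamma receptors. The activating receptors FcγRI (Fcgr1), FcγRIII (Fcgr3) and FcγRIV (Fcgr4) have no signalling motif of their own in the mouse and depend on the FcR gamma chain (Fcer1g), an adaptor with an immunoreceptor tyrosine-based activation motif (ITAM). FcγRIIB (Fcgr2b) carries an inhibitory motif instead and dampens activating receptors on the same cell. Fcrls is an Fc receptor-like scavenger molecule characteristic of mouse microglia, and Fcgrt encodes the neonatal Fc receptor FcRn, which pairs with β2-microglobulin and returns IgG from endosomes to the circulation.

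All values are RPKM, reads scaled to transcript length and library size, and log2 fold changes were taken after adding 0.1 RPKM. A gene was called higher or lower in a pair of libraries at a fold of 1.5 or more. Transcript lengths and the steps between low values gave an estimated depth of 36800000 to 38600000 fragments per library, so that 1 fragment of Fcgr4 is worth about 0.02 RPKM. Intervals given with ratios are 95% exact Clopper-Pearson intervals on estimated fragments and cover counting error only, not differences between animals.

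The 6 receptor and adaptor genes other than Fcgrt stood at low levels in both WT libraries and several times higher in both G93A libraries. Fcgrt, the highest of the 7 in WT, differed least. In G93A vehicle against WT vehicle all 7 genes were called higher, against 14.4% of all names (5.31% were lower) and 13.1% of the names with a mean of at least 1 RPKM, and their median log2 fold change was 3.32 beside 0.046 over all names. In the SD libraries of the genotypes, a pair that shares no library with the first, all 7 were again called higher in G93A, against 17.1% of all names (7.82% were lower) and 15.8% of those with a mean of at least 1 RPKM, with a median of 3.76 beside 0.050. The rule that chose the genes uses names and no values, but the genes were proposed with earlier results of these libraries known, so these counts are a description.

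**Figure D1:**
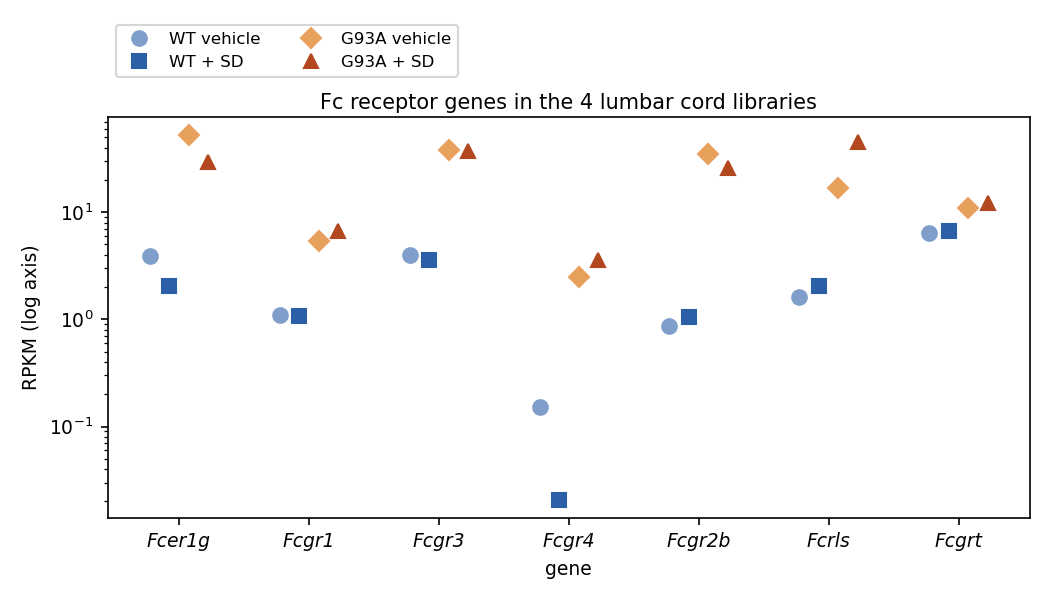
RPKM of the 7 Fc receptor genes on a log axis, with 1 point for each of the 4 libraries and no error bars because each condition is 1 library. In all 7 genes both G93A points lie above both WT points, from Fcgrt at 10.8 and 12.1 RPKM over 6.40 and 6.68 RPKM to Fcgr2b at 34.7 and 26.0 RPKM over 0.875 and 1.05 RPKM.

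Fcer1g, the adaptor that the activating receptors need for surface expression and signalling, had 3.89 RPKM with vehicle and 2.07 RPKM with SD in WT, and 52.0 RPKM with vehicle and 29.2 RPKM with SD in G93A. Both G93A values lay above both WT values, and in each genotype the SD library was the lower one. Between genotypes the log2 fold change was 3.71 with vehicle and 3.76 with SD. The gene lies on chromosome 1 (GRCm38, chr1:171229572-171234365, minus strand).

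Among the activating receptors, Fcgr3 was the most abundant. This low-affinity receptor for IgG complexes had 3.96 RPKM with vehicle and 3.54 RPKM with SD in WT, and 38.3 RPKM with vehicle and 37.4 RPKM with SD in G93A, so that the libraries of a genotype lay close together and the genotypes far apart. Its log2 fold change between genotypes was 3.24 with vehicle and 3.36 with SD. Fcgr1, the high-affinity IgG receptor, had 1.11 RPKM with vehicle and 1.07 RPKM with SD in WT, and 5.43 RPKM with vehicle and 6.66 RPKM with SD in G93A. Its log2 fold changes of 2.19 and 2.53 were smaller than those of Fcgr3 in both genotype comparisons.

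Fcgr4, the activating receptor for IgG2 subclasses, was the lowest of the 7 in every library. It had 0.152 RPKM with vehicle and 0.0208 RPKM with SD in WT, and 2.46 RPKM with vehicle and 3.59 RPKM with SD in G93A. The WT values correspond to about 7 and 1 fragments and the G93A values to about 117 and 174 fragments. The ratio of G93A vehicle to WT vehicle was 16.2 (interval 7.62 to 41.2), and with SD the single fragment in WT leaves an interval of 30.5 to 6849.

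Fcgr2b, the inhibitory receptor, was the member with the highest fold in the vehicle pair. It had 0.875 RPKM with vehicle and 1.05 RPKM with SD in WT, and 34.7 RPKM with vehicle and 26.0 RPKM with SD in G93A. Its log2 fold change was 5.16 with vehicle, the 17th highest of 12987 names with a mean of at least 1 RPKM, and 4.51 with SD, the 39th highest. The gene has 2 rows in the table, for a pair of RefSeq transcripts, and the ratio of one row to the other stayed between 0.909 and 0.918 in the 4 libraries, so that the rows do not separate these isoforms.

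Fcrls had 1.61 RPKM with vehicle and 2.07 RPKM with SD in WT, and 16.9 RPKM with vehicle and 45.4 RPKM with SD in G93A. The gene lies at chr3:87250758-87263738 and Fcgr1 at chr3:96282909-96293969, both on the minus strand. Fcrls was the fourth of the 7 genes in G93A vehicle and the first in G93A + SD. Its log2 fold change between genotypes was 3.32 with vehicle and 4.39 with SD. Fcgrt had 6.40 RPKM with vehicle and 6.68 RPKM with SD in WT, and 10.8 RPKM with vehicle and 12.1 RPKM with SD in G93A. Its log2 fold changes of 0.75 and 0.84 were called higher but lay inside the range from the 5th to the 95th percentile of names with a mean of at least 1 RPKM (upper limits 1.24 and 1.49). The gene lies at chr7:45092990-45103851 on the minus strand. The partner of FcRn, β2-microglobulin (B2m), had 80.0 and 60.7 RPKM in WT (vehicle, then SD) and 235.8 and 374.8 RPKM in G93A, and Fcgrt as a share of B2m went from 8.01% and 11.0% in the WT libraries to 4.59% and 3.22% in the G93A libraries.

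**Figure D2:**
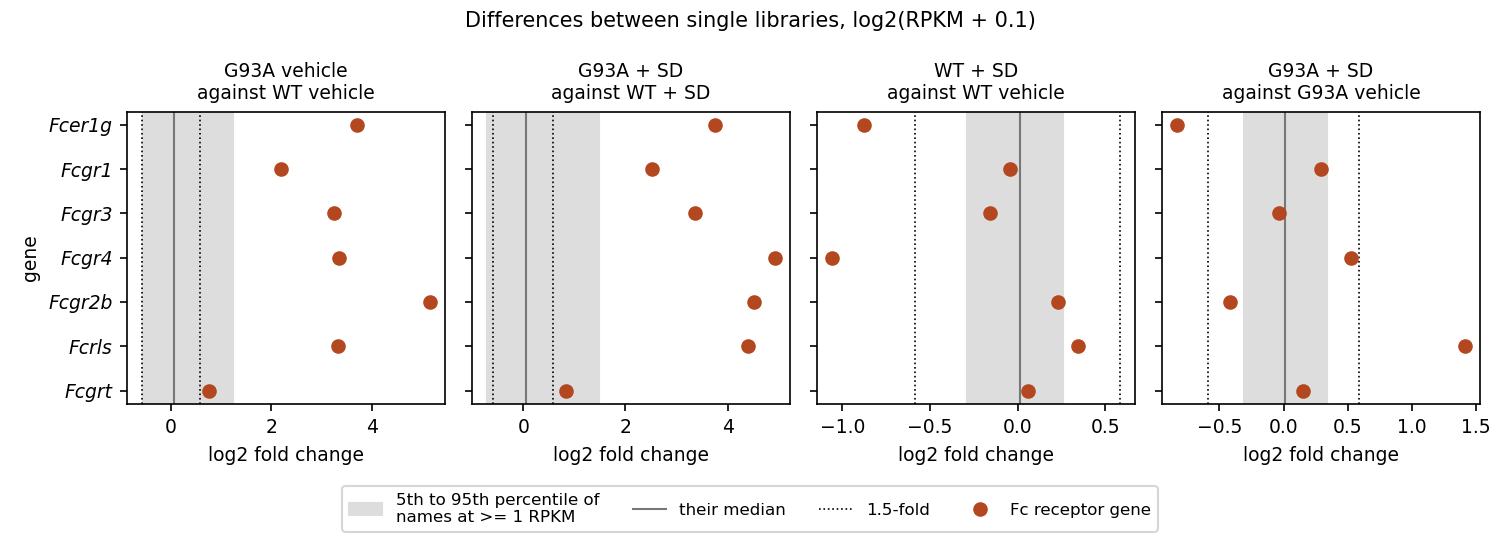
Log2 fold change (RPKM + 0.1) of each Fc receptor gene in the 4 comparisons between single libraries, with the 5th to 95th percentile range and the median of the 12987 names with a mean of at least 1 RPKM in grey and the 1.5-fold limits as dotted lines. Between genotypes 6 genes lie to the right of the grey range and Fcgrt inside it, while between SD and vehicle Fcer1g lies to the left of it in both genotypes and Fcrls to the right in both, far out in G93A at 1.42. Fcgr4 lies to the left in WT and to the right in G93A, and Fcgr2b to the left in G93A. The scale of the log2 axis differs between panels.

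With SD the Fc receptor genes did not move as a group. In WT + SD against WT vehicle, Fcer1g and Fcgr4 were called lower, against 2.8% of all names and 1.16% of those with a mean of at least 1 RPKM, and 0 of the 7 higher, against 2.25% of all names. The other 5 genes lay between -0.16 and 0.34 on the log2 scale. In G93A + SD against G93A vehicle, Fcrls was called higher, against 2.97% of all names and 1.24% of those with a mean of at least 1 RPKM. Fcer1g was called lower, against 2.55% and 0.932%. The other 5 genes lay between -0.42 (Fcgr2b) and 0.53 (Fcgr4). Each SD comparison shares its libraries with the genotype comparisons above, while the 2 SD pairs share none with each other.

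Fcer1g was the gene called in both SD pairs. Within WT its level was 1.84-fold lower with SD (log2 fold change -0.88), the 67th lowest of 12987 names, and within G93A it was 1.78-fold lower (log2 fold change -0.83), the 53rd lowest. Neither fold reaches 2, so both calls end with a 2-fold threshold. Counting error alone gives the WT ratio of vehicle to SD an interval of 1.33 to 2.68 and the G93A ratio one of 1.63 to 1.95. Of the receptor genes whose products need this adaptor, Fcgr4 was also called lower in WT, and none was called lower in G93A. Their summed level (Fcgr1, Fcgr3 and Fcgr4) was 5.22 RPKM with vehicle and 4.64 RPKM with SD in WT, and 46.2 RPKM with vehicle and 47.7 RPKM with SD in G93A. The sum per unit of Fcer1g therefore went from 1.34 to 2.24 in WT and from 0.888 to 1.63 in G93A. Tyrobp (DAP12), the other ITAM adaptor of microglia, had 9.67 and 7.76 RPKM in WT (vehicle, then SD) and 139.3 and 148.5 RPKM in G93A and was called in neither SD pair. Of 12 microglial markers, Olfml3 alone was called in the SD pairs, lower in WT (log2 fold change -0.76) and higher in G93A (0.84, from 17.6 to 31.6 RPKM). Markers of other cell types differed with SD in G93A beside Fcer1g and Fcrls. Of 8 motor neuron markers 2 were called lower and 0 higher (median -0.44), and of 7 astrocyte markers 1 was called higher and 0 lower (median 0.22). Of 9 neutrophil markers 2 were called lower and 0 higher, S100a8 from 0.938 to 0.364 RPKM and S100a9 from 1.27 to 0.342 RPKM. Of 10 perivascular macrophage and monocyte markers 2 were called higher and 1 lower, of 8 B cell and plasma cell markers 1 higher and 2 lower, and of 6 NK cell markers 1 higher and 0 lower. The part of these cell types in the differences of Fcer1g and Fcrls was not tested.

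Some genes beside Fcer1g on chromosome 1 also differed between SD and vehicle in both genotypes. The window searched was centred on Fcer1g because of its own calls, so Fcer1g itself is left out here. Of the 31 other measured names with a gene within 500000 bases, Adamts4 and Apoa2 were called lower with SD in both pairs. Over all 18674 names this was so for 99 (0.530%), Fcer1g among them. Adamts4 and Apoa2 are named here after their values were seen. Adamts4, an extracellular protease whose start site lies 16.1 kb from that of Fcer1g, had 10.9 RPKM with vehicle and 3.23 RPKM with SD in WT, and 17.0 RPKM with vehicle and 3.29 RPKM with SD in G93A. Apoa2, an apolipoprotein gene 9.31 kb away on the other side, had 0.495 and 1.16 RPKM in the vehicle libraries of WT and G93A and was listed at 0 in both SD libraries. In both genes the SD libraries of the 2 genotypes stood close together. The median log2 fold change of the 23 neighbours with a mean of at least 1 RPKM was -0.056 in WT and -0.18 in G93A. The mice were of mixed B6/SJLF1 background, and whether the libraries differed in the strain origin of this stretch of chromosome 1 was not tested.

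**Figure D3:**
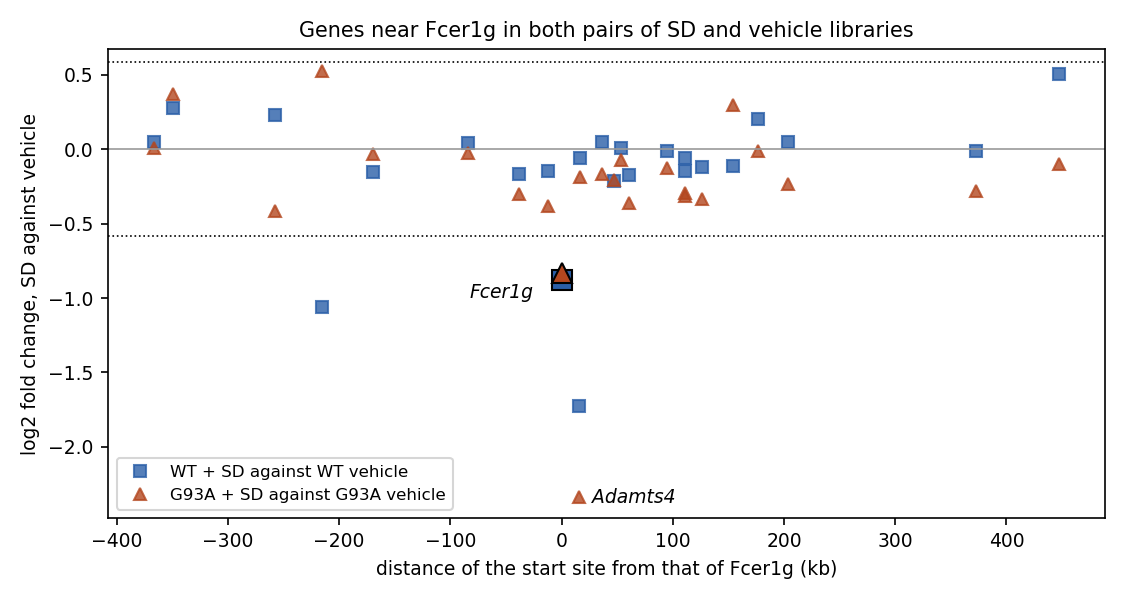
Log2 fold change of SD against vehicle (RPKM + 0.1) for the 23 neighbours of Fcer1g within 500000 bases that have a mean of at least 1 RPKM, plotted by the distance of each start site from that of Fcer1g in kb, with squares for the WT pair, triangles for the G93A pair, black-edged symbols for Fcer1g and dotted lines at 1.5-fold. Fcer1g and Adamts4 lie below the lower line with both symbols, while most other genes lie between the lines. Apoa2 has a lower mean and is not plotted.

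Within G93A, Fcrls was 2.68-fold higher with SD (log2 fold change 1.42, interval 2.52 to 2.85), the 20th highest of 12987 names. In WT the ratio was 1.28 (interval 1.02 to 1.62), which was not called. Fcgr2b went the other way in G93A, with a ratio of 0.750 (interval 0.701 to 0.801), also not called. The WT call of Fcgr4 rests on about 1 fragment against 7, and the interval of the ratio of vehicle to SD, 0.935 to 327.9, includes 1. Fcgr3 had a ratio of 0.977 (interval 0.917 to 1.04) in the G93A pair, close to no difference, and Fcgr1 one of 1.23 (interval 1.09 to 1.38).

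The balance of activating and inhibitory Fc gamma receptor genes differed between the genotypes. The summed level of Fcgr1, Fcgr3 and Fcgr4 divided by that of Fcgr2b was 5.97 with vehicle and 4.44 with SD in WT, and 1.33 with vehicle and 1.83 with SD in G93A, so that both G93A ratios lay below both WT ratios. Fcgr2b made up 14.4% and 18.4% of the summed Fc gamma receptor level in WT vehicle and WT + SD and 42.9% and 35.3% in G93A vehicle and G93A + SD. Fcgr3 held 65.0% and 62.4% in WT and 47.3% and 50.8% in G93A. Such a ratio within a library does not depend on how libraries are scaled to each other.

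**Figure D4:**
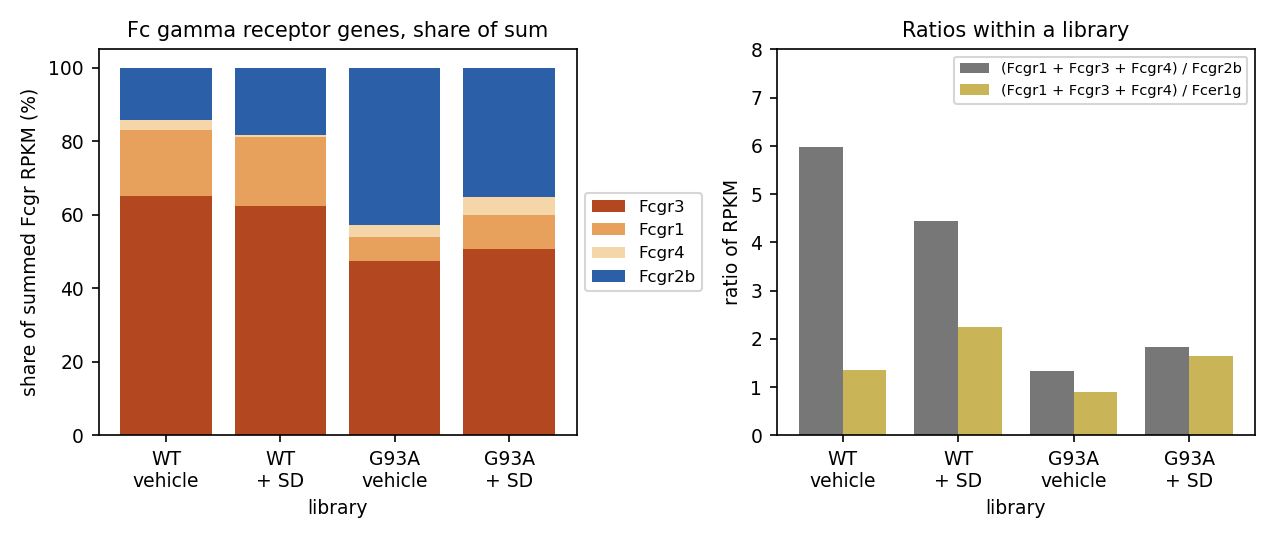
Left, share of Fcgr3, Fcgr1, Fcgr4 and Fcgr2b in their summed RPKM in each library, in percent. Right, the summed activating receptors divided by Fcgr2b (grey) and by Fcer1g (yellow). Fcgr2b takes 42.9% and 35.3% of the sum in the G93A libraries against 14.4% and 18.4% in the WT libraries, and the yellow bar is higher in the SD library of each genotype.

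Fcgr3 and Fcgr2b are near neighbours on chromosome 1 with closely related extracellular parts. Fcgr2b lies at chr1:170958617-170976547 and Fcgr3 at chr1:171051174-171064935, both on the minus strand of GRCm38, with Fcgr4 between them on the plus strand at chr1:171018920-171029761. Of the 53-base windows of the Fcgr3 transcript, 12.1% also occur in Fcgr2b, and 11.1% of those of the shorter Fcgr2b transcript occur in Fcgr3. GENCODE M21 pairs the other Fcgr2b row with a longer transcript of 3544 bases. It has 424 of its 3492 windows in transcripts of other genes, of which 157 are in Fcgr3. Windows outside Fcgr3 are in many other genes, such as Cplx2 (235 windows) and Rab3c (200). The transcript length behind the deposited row is not given. With a row ratio held between 0.909 and 0.918 in the 4 libraries, these windows may not apply to its value. No window of Fcer1g, Fcgr1, Fcgr4, Fcrls or Fcgrt was shared with another member. The run below is the longest one that the coding sequences of Fcgr3 and the shorter Fcgr2b transcript (GENCODE M21) share, 129 bases across an exon junction, and it is shown because a read of 53 bases inside it cannot be assigned to either gene by sequence. In the genome it spans chr1:171054167-171057792 in Fcgr3 and chr1:170966674-170968081 in Fcgr2b, both on the minus strand.
Fcgr3 and Fcgr2b: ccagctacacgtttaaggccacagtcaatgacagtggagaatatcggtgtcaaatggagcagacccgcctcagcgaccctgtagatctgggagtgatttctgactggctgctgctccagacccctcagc
How the counting treated such reads is not given in the sources used here, so the split between Fcgr3 and Fcgr2b is uncertain to that extent. Fcgr2b and Fcgrt also overlap antisense genes (Gm38204 and Gm45669), and nothing in the sources used here says whether strand was used in counting.

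Because 6 of the genes stood higher together, their promoters were searched for GAGGAA, a core that PU.1 and other ETS factors of myeloid cells recognise, on both strands of the window from 250 bases before to 50 bases after each RefSeq start site (GRCm38.p6). The core occurred in the windows of Fcgr4, Fcgr3, Fcrls and Fcgr1 and was not found in those of Fcer1g, Fcgr2b and Fcgrt. Of all 32851 promoter windows, 28.3% hold it. The longer form GAGGAAGT, which contains the core, was found in Fcgr4 and in 3.20% of all windows. Stretches of 60 bases around the matches are given 5′ to 3′ on the strand of the gene, with the core or its reverse complement in capitals: Fcgr4 at chr1:171018877-171018936 (plus), Fcgr3 at chr1:171059377-171059436 (minus), Fcrls at chr3:87263636-87263695 (minus) and Fcgr1 at chr3:96293992-96294051 (minus).
Fcgr4: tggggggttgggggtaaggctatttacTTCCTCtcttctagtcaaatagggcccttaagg
Fcgr3: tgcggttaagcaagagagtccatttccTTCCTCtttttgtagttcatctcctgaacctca
Fcrls: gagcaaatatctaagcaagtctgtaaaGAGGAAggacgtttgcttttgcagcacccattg
Fcgr1: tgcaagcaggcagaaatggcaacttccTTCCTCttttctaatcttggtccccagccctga
The match begins 22 bases before the start site in Fcgr4, 55 in Fcgr1 and 144 in Fcrls, and 6 or 15 in Fcgr3, depending on which of its start sites is used. Binding of a factor was not measured in these libraries.

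The levels of microglial genes moved with the genotype too. Of 12 microglial markers, 9 were called higher and 0 lower in G93A with vehicle, and 10 higher and 0 lower with SD, with medians of 1.40 and 1.90. Their summed level was 185.4 RPKM with vehicle and 170.3 RPKM with SD in WT, and 806.8 RPKM with vehicle and 852.2 RPKM with SD in G93A, with no marker at 0. Among the most abundant, the complement gene C1qa went from 26.0 to 281.3 RPKM with vehicle, and the receptor genes Csf1r and Cx3cr1 had log2 fold changes of 1.74 and 1.56. In bulk tissue, more cells of a type and more RNA per cell cannot be told apart.

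Set against the mean of the 12 microglial markers in the same library, the members parted. Fcgr1 kept nearly the same share of it, at 7.18% with vehicle and 7.57% with SD in WT, and 8.08% with vehicle and 9.38% with SD in G93A. Fcgr2b went from 5.66% and 7.37% in WT to 51.7% and 36.6% in G93A, and Fcgr3 from 25.6% and 25.0% to 57.0% and 52.7%. Fcer1g stood with vehicle at 25.1% in WT and 77.4% in G93A, and with SD at 14.6% in WT and 41.1% in G93A. Fcrls stood at 10.4% and 14.6% in WT and 25.2% and 63.9% in G93A, so that its SD difference in G93A remained on this scale. Fcgrt stood at 41.4% and 47.0% in WT and at 16.1% and 17.0% in G93A.

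Most markers of other cells that can carry Fc receptors were low. The 10 markers of perivascular macrophages and monocytes summed to 4.76, 5.11, 13.5 and 18.1 RPKM, again with the WT libraries first and vehicle before SD. Vcan, the most abundant of the 10, gave 3.69, 3.85, 5.58 and 8.18 RPKM of these sums. Between genotypes 4 of the 10 markers were called higher and 0 lower with vehicle. With SD 4 were called higher and 1 lower (Plac8, log2 fold change -1.08). Ms4a7 went from 0.0303 to 5.67 RPKM in the vehicle pair. The perivascular macrophage genes Mrc1, Cd163 and Lyve1 stayed below 1 RPKM in every library. Neutrophil markers summed to 1.15, 0.871, 2.60 and 0.939 RPKM, B cell and plasma cell markers to 0.882, 1.01, 2.09 and 2.65 RPKM, and NK cell markers to between 0.0363 and 0.647 RPKM. The 4 measured mast cell markers summed to 5.38, 4.79, 4.99 and 6.65 RPKM, nearly all of it from Kit, a growth factor receptor gene that is also expressed outside mast cells. Of the others, Tpsb2 was listed at 0 in 3 libraries and Ms4a2, the beta chain of the IgE receptor, in 2. Their part in the levels of the Fc receptor genes was not tested. Endothelial markers, relevant to Fcgrt because FcRn is found in brain and spinal cord vessels, summed to 108.0, 105.1, 98.4 and 86.6 RPKM, and none of the 10 was called higher between genotypes. Of these markers, 2 were called lower in G93A in the SD libraries, the tight junction gene Cldn5 (log2 fold change -0.65) and the growth factor receptor gene Kdr (-0.83), and Cldn5 was also lower with SD in G93A (-0.90).

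The signalling genes downstream of ITAM receptors stood higher in G93A as well. Of 23 measured ITAM signalling genes, 18 were called higher and 0 lower in each genotype comparison, with medians of 1.78 with vehicle and 1.93 with SD, and none was called in either SD pair. Tyrobp had log2 fold changes of 3.83 and 4.24, the kinase gene Prkcd 1.18 and 1.49, and Bcl10, of the CARD9 signalling complex, 0.66 and 0.78, whereas Fyn, a kinase gene also used by neurons and glia, had 0.32 and 0.48. Syk, the kinase recruited by ITAM motifs, was not analysed here. Of 17 inhibitory signalling genes, 13 were called higher and 0 lower in each genotype comparison, with medians of 0.97 and 0.93. The most abundant of these, the receptor gene Sirpa and the phosphatase genes Ptpn11 and Inppl1, had log2 fold changes with vehicle of 0.80, 0.22 and 0.63, and the kinase gene Csk 0.11. In the SD pairs 1 inhibitory gene was called lower in WT and 2 higher in G93A. Siglech, called higher between genotypes (0.84 with vehicle and 0.70 with SD), is on the inhibitory list and also among the microglial markers. Its place among inhibitory genes was not checked.

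Receptors that borrow the same adaptor were lowly expressed. Of 15 receptor genes listed as partners of the FcR gamma chain, 8 were called higher with vehicle and 7 with SD between genotypes, 0 lower, and 2 of the 15 reached a mean of 1 RPKM. Csf2rb, the shared beta chain of cytokine receptors, had 0.360, 0.274, 2.85 and 3.43 RPKM, again with the WT libraries first and vehicle before SD, and Il3ra 0.370, 0.301, 2.14 and 2.16 RPKM. The lectin gene Clec4a3 had a log2 fold change of 1.94 with vehicle, while the osteoclast-associated receptor Oscar had -0.030. In WT, 1 of the 15 was called higher with SD, and in G93A none was called. Since 8 of the 15 were listed at 0 in WT vehicle, most could not have been called lower there. Of 11 receptors that pair with Tyrobp, 4 were called higher in each genotype comparison and 1 lower with SD. Trem2, the lipid-sensing receptor of microglia, had 5.31, 5.50, 65.1 and 43.9 RPKM, and its log2 fold change with SD in G93A, -0.57, fell just short of the call.

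**Figure D5:**
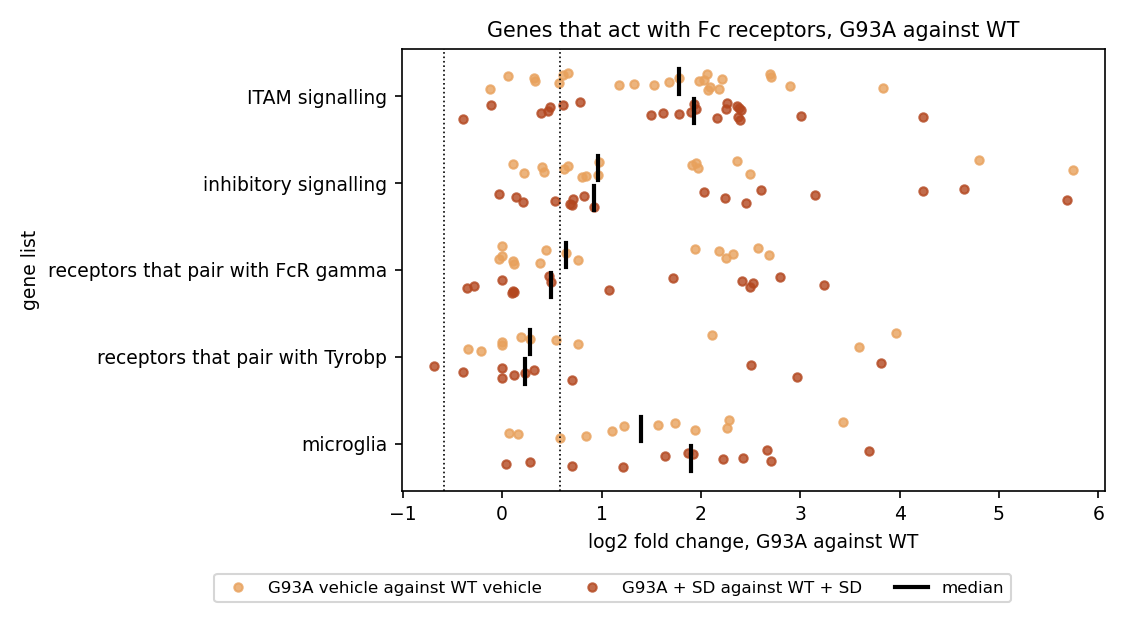
Log2 fold change (RPKM + 0.1) of G93A against WT for each measured gene of 5 lists, with light points for the vehicle pair, dark points for the SD pair, black bars at the medians and dotted lines at 1.5-fold. The ITAM signalling genes have medians of 1.78 and 1.93 and the inhibitory signalling genes 0.97 and 0.93, while most receptors that pair with FcR gamma or Tyrobp lie nearer to 0.

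Other Fc receptors were near the limit of detection. Of 11 measured Fc receptor or Fc-binding genes outside the 7, B2m and the cytosolic antibody receptor Trim21 alone reached a mean of 1 RPKM. Trim21 had 1.46, 1.42, 1.98 and 2.64 RPKM, again with the WT libraries first and vehicle before SD. Fcrlb and Fcrl1 stayed below 1 RPKM in every library. Between genotypes 2 of the 11 were called higher and 1 lower with vehicle and 4 higher and 0 lower with SD, and in the SD pairs 1 was lower in WT and 3 higher in G93A. Of the ligands of Fc receptors and plasma proteins on the list, 3 were measured, the antibody joining chain Igj, Crp and Alb, and they summed to between 0.139 and 0.406 RPKM. Immunoglobulin heavy and light chain genes were not analysed here.

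The names whose pattern over the 4 libraries lay nearest to each member, by Euclidean distance between centred log2 values over 12987 names, differed from member to member. Fcer1g was nearest to Ly86 (distance 0.55) and C1qa, and Ly86 was also lower in both SD libraries, with 6.41, 5.01, 78.0 and 63.8 RPKM. Fcgr3 was nearest to the integrin gene Itgb2 (0.12), Capg and Slc15a3, and Fcgr1 to Fas (0.033), Cd63 and Galntl2. Fcgr2b was nearest to the chemokine gene Ccl4 (0.26), Cd22 and Ccl3, and Fcgr4 to Gpr65 (0.40), S100a4 and Socs3. Fcrls had Cd109 (0.43), Cyr61 and Cdsn, and Fcgrt had Nrcam (0.0064), St8sia2 and Hif1a. None of the 7 genes had another of the 7 among its nearest 3, and with 4 values per gene such nearness is a description only.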

How the data were processed

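One table of the whole series was deposited, with 1 value column for each of the 4 lumbar spinal cord libraries. Per the methods, the authors aligned 53 bp reads of polyA RNA to GRCm38 using STAR and obtained counts per Ensembl gene from HTSeq, while the deposited table lists RefSeq transcripts. RPKM was inferred as the unit of the deposited values because values times transcript length summed to nearly equal totals (1.12e+06) in the libraries. The ratio columns that the authors deposited were not used. Rows were averaged per name, 0.1 RPKM was added before log2, and calls used 1.5-fold. No test was run, since each condition has 1 library and no replicate. The members and lists (other Fc receptors, ligands, ITAM and inhibitory signalling, receptor partners, cell type markers) were chosen with earlier results of these data known. From each list the 4 names with the highest mean, and for each member the 3 nearest names, were printed, together with the values the text points out, except that some names are not reported here. Positions and transcripts came from GENCODE M21 (GRCm38), promoters from RefSeq (GRCm38.p6). The estimated depth covers 23026 rows (97.0%) whose transcript length was known. Between genotypes, of 8 motor neuron markers, 4 were called lower in G93A with vehicle and 6 with SD, of 7 astrocyte markers 5 were called higher in both, and of 6 oligodendrocyte markers 0 were called higher and 1 lower (with SD). Calculations ran in pandas 2.3.3 and numpy 2.4.6 under Python 3.11.15, with figures from matplotlib 3.10.9, and were tested on simulated data. The alternatives were median-ratio scaling, no pseudocount or 1 RPKM, the row with the highest mean, a mean of at least 1 RPKM and a 2-fold threshold.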

Additional observations from a re-analysis of the deposited data

Results flagged for a closer look

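In 3 Fc receptor genes the SD library lay on opposite sides of the vehicle library in WT and in G93A. With 1 library per condition these differences were not tested. For Fcgr4 the log2 fold change of SD against vehicle was -1.06 in WT and 0.53 in G93A, a difference of 1.59 that rests on about 1 fragment in WT + SD. For Fcgr2b it was 0.23 in WT and -0.42 in G93A, a difference of -0.65. For Fcgr1 it was -0.042 in WT and 0.29 in G93A, a difference of 0.33. Of these 6 values, that of Fcgr4 in WT alone reached 1.5-fold.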

How the results depend on the processing

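Each condition is 1 library, so differences between animals could not be separated from those between conditions, and depth limits Fcgr4 in the WT libraries. The number of Fc receptor genes called lower in WT + SD against WT vehicle went from 2 to 1 with a pseudocount of 1 RPKM and to 1 with a 2-fold threshold, and in G93A + SD against G93A vehicle from 1 to 0 with a 2-fold threshold. The gene that lost its call with the 2-fold threshold was Fcer1g in both pairs, and with the larger pseudocount it was Fcgr4, at a log2 fold change of -0.17. With median-ratio scaling (factors 0.977 to 1.03), with no pseudocount and with the row of the highest mean, all 28 log2 fold changes kept their direction and call. No value reversed under these alternatives. Of 128 list counts, 36 moved by over 1.5 times among names with a mean of at least 1 RPKM, 34 with a pseudocount of 1 RPKM, 37 with a 2-fold threshold and 3 with median-ratio scaling. No paired analysis was possible because the groups compared share fewer than 2 replicate numbers, and an additive model of genotype and treatment over the 4 libraries was not fitted.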

Other observations

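The levels of Fc receptor genes were ordered differently in the 2 genotypes. Fcgrt was the highest of the 7 in both WT libraries, and the fifth in both G93A libraries, behind Fcer1g, Fcgr3, Fcgr2b and Fcrls. Over all names, 71 were called higher and 99 lower with SD in both genotypes, while 127 were called in opposite directions. The 99 include Fcer1g itself and its neighbours Adamts4 and Apoa2.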
